A study of Rattus norvegicus with 11 samples.

Results

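The distal convoluted tubule (DCT) cells of ZSF1 rat kidneys are described here. The members are the cells to which the authors' table gives the exact cell type name DCT, without the cells of the joint name DCT/CNT, in which CNT is read as connecting tubule. There were 2669 DCT cells among 114615 cells of 11 animals. The kidneys were dissociated, freed of debris and dead cells, and read by droplet single-cell RNA sequencing, in which each captured RNA molecule carries a unique molecular identifier (UMI). Lean rats numbered 4, obese rats 4, and a group of 3 obese rats had enalapril in the drinking water (Obese+enalapril, called treated here). All were male ZSF1 rats, 12 weeks old on arrival, and the labels give every animal the genotype ZSF1-LeprfaLeprcp/Crl. The labels do not say which leptin receptor alleles the lean rats carried, give the treatment of lean and untreated obese rats as none, and say elsewhere that untreated obese rats drank the vehicle. The sources used here do not give the dose or the length of the treatment.

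The DCT is the short nephron segment after the thick ascending limb (TAL) and the macula densa (MD). It takes up sodium chloride through the thiazide-sensitive cotransporter encoded by Slc12a3, and its early portion is rich in parvalbumin, encoded by Pvalb. The segment is dense in mitochondria, which supply its sodium pump, and angiotensin II and aldosterone raise its sodium uptake. Enalapril inhibits angiotensin-converting enzyme and thereby lowers angiotensin II. The table used here holds 1 line per cell with its UMIs, genes, percent of UMIs from mitochondrial genes, cell cycle scores and phase, cell type name and position on a map of all cells, but no gene values. The name DCT could therefore not be checked against Slc12a3 and Pvalb.

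Several properties of the libraries bear on what follows. Lean rat 2 stood apart, with a lowest total of 193 UMIs in a cell where the other animals had 469 to 493, and a median of 302 UMIs per DCT cell where the others had 1014 to 2447. Of the 2669 DCT cells, 82 (3.07%) had a barcode that also occurred in another animal, against 2.86% of all cells, and in 0 of these cases was the cell of the other animal also named DCT. The sample codes fall into 6 stems, each used in 1 group alone. Lean rats 1 and 2 share a stem, as do lean rats 3 and 4, obese rats 1 and 2, obese rats 3 and 4, and treated rats 1 and 2. The labels do not say what a stem stands for, so stem and group cannot be told apart. Animals of the same stem were fitted as independent, which was not tested. No deposited cell reached 50% mitochondrial UMIs, and the highest DCT cell had 49.97%. The deposited percents were not fractions of the deposited UMI totals: only 1.95% of cells above 0 gave a whole number of mitochondrial UMIs within 0.01, and for the 67885 of 110808 cells above 0 whose total could be recovered from the percent, that total exceeded the deposited one by a median of 4.25% (16.4% in lean rat 2). The labels do not say that the animals were other than separate rats, and the animal is the replicate throughout.

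DCT cells made up a smaller share of the cells of obese kidneys than of lean ones. They were 5.66%, 5.88%, 3.49% and 6.35% of all cells in lean rats 1 to 4 (5.35% ± 1.27, SD, n = 4). In obese rats 1 to 4 they were 1.25%, 1.66%, 1.69% and 0.505% (1.28% ± 0.552, SD, n = 4), and in treated rats 1 to 3 they were 1.19%, 1.90% and 1.74% (1.61% ± 0.373, SD, n = 3). All obese and treated animals lay below all lean animals, and the obese and treated groups overlapped. The counting error of single animals was small, with an exact 95% Clopper-Pearson interval of 0.408% to 0.618% in obese rat 4 and 5.77% to 6.98% in lean rat 4. Such intervals cover counting error only. In edgeR's quasi-likelihood test on the numbers of cells of 20 types, DCT cells were lower in obese than in lean rats by a log2 fold change of -2.07 ± 0.43 (SE, adjusted p = 0.00075), where 60% of the types were called. Treated rats were also below lean rats (-1.73 ± 0.47, adjusted p = 0.01, 15% of types called). Between treated and untreated obese rats the change was 0.34 ± 0.44 (adjusted p = 0.646), with 0.0% of types called in edgeR and 2 of 20 types at an unadjusted p under 0.05.

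Obese kidneys had a mean of 7891.75 non-immune cells among 11965.8 cells, and lean kidneys 6295.25 among 7387.5 (n = 4 each). The DCT share was therefore also taken of the non-immune cells. It was 6.14% ± 1.23 in lean rats, 1.96% ± 0.886 in obese rats and 1.97% ± 0.5 in treated rats (SD, n = 4, 4 and 3), again with all obese and treated animals below all lean ones. With non-immune cells as the total, edgeR gave -1.65 ± 0.41 for obese against lean rats (adjusted p = 0.0103). With all cells as the total and lean rat 2 left out the change was -2.02 ± 0.44 (adjusted p = 9.59e-05). The exact permutation test, whose smallest possible p is 0.0286 with 4 against 4 animals, gave an adjusted p of 0.0714 for this comparison. For treated against lean rats the exact permutation test did not pass either. The call for treated against lean rats was lost without treated rat 1 (-1.55 ± 0.54, adjusted p = 0.0515) and among cells of at least 500 UMIs (-1.40 ± 0.60, adjusted p = 0.108).

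The DCT/CNT cells, which the authors kept apart, were 2593 in number. DCT cells as a share of DCT and DCT/CNT cells combined were 59.4% ± 14.0 in lean, 43.1% ± 6.38 in obese and 40% ± 1.12 in treated rats (SD, n = 4, 4 and 3). Obese rat 2, with 52.2%, lay inside the lean range of 43.7% to 73.7%, and the other obese rats lay below it. DCT/CNT cells themselves were lower in obese than in lean rats (log2 fold change -1.26, edgeR, adjusted p = 0.0213). That call was lost in 7 settings, among them without lean rat 2, obese rat 2 or obese rat 4 (adjusted p up to 0.151). The values were -0.46 for TAL (adjusted p = 0.269) and -0.81 for TAL/MD (adjusted p = 0.133). Whether the DCT change differed from these was not tested.

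The DCT cells were then split at 5% mitochondrial UMIs, a level often used as a limit on cell quality. Across the series the split was nearly even, with 1337 DCT cells under 5% and 1332 at or over it. The 2 classes were spread unequally over the groups. Under 5% were 1124 of 1560 lean, 83 of 541 obese and 130 of 568 treated DCT cells. By animal, the share under 5% was 63.9%, 96.8%, 50.6% and 83.7% in the lean rats (73.7% ± 20.5, SD, n = 4). Obese rats 1 to 4 had 7.35%, 11.1%, 25.6% and 10.8% (13.7% ± 8.13, SD, n = 4). Treated rats 1 to 3 had 44.4%, 11% and 8.09% (21.2% ± 20.2, SD, n = 3). All obese and treated animals lay below all lean animals, and treated rat 1 lay above all obese rats.

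**Figure D1:**
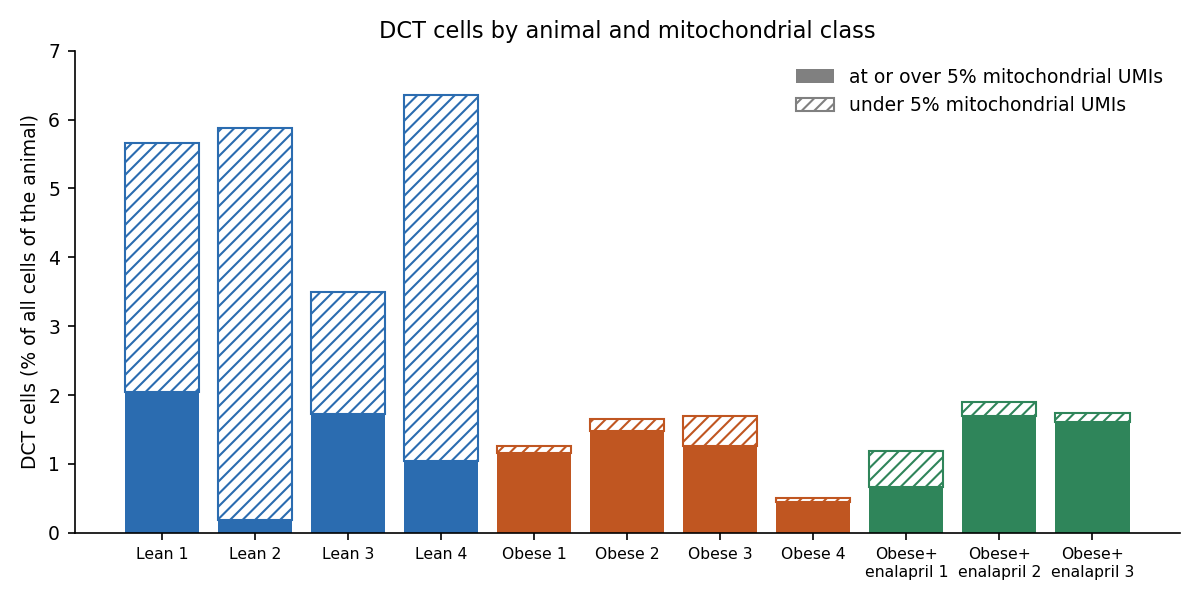
DCT cells as a percent of all cells of each animal (y axis), 1 bar per animal, with the filled part at or over 5% and the hatched part under 5% mitochondrial UMIs. The hatched parts were 1.77% to 5.69% in lean rats and at most 0.529% in obese and treated rats, while the filled parts overlapped between groups.

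DCT cells under 5% fell in obese rats, and those at or over 5% did not pass the test. As a share of all cells, DCT cells under 5% were 3.62%, 5.69%, 1.77% and 5.32% in lean rats (4.10% ± 1.80, SD, n = 4). They were 0.0922%, 0.184%, 0.433% and 0.0543% in obese rats (0.191% ± 0.170, SD, n = 4), and 0.529%, 0.210% and 0.141% in treated rats (0.293% ± 0.207, SD, n = 3). DCT cells at or over 5% were 1.25% ± 0.823 in lean, 1.09% ± 0.443 in obese and 1.32% ± 0.571 in treated rats, and these groups overlapped. In edgeR's test over 39 features (each type split at 5%), DCT cells under 5% were lower in obese than in lean rats by -4.42 ± 0.82 on the log2 scale (SE, adjusted p = 0.000811), where 30.8% of features were called. Treated rats were lower than lean rats by -3.79 ± 0.90 (adjusted p = 0.0136, 5.13% called). Treated against untreated obese rats gave 0.63 ± 0.78 (adjusted p = 0.670), with 0.0% of features called in edgeR, 4 at an unadjusted p under 0.05 and 0 in DESeq2. For DCT cells at or over 5% the 3 changes were -0.21 ± 0.70, 0.07 ± 0.76 and 0.28 ± 0.76 in the same order (adjusted p = 0.845, 0.980 and 0.842).

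The obese change in DCT cells under 5% was -4.22 ± 0.77 without lean rat 2 (adjusted p = 0.000661) and -4.03 ± 0.88 among cells of at least 1000 UMIs (adjusted p = 0.00249), and of the settings run only the exact permutation test missed the threshold (adjusted p = 0.0929). Leaving out treated rat 2 ended the call for treated against lean rats (-3.59, adjusted p = 0.0727), as did leaving out treated rat 3 (-3.46, adjusted p = 0.0764) and fitting only cells of at least 500 UMIs (-3.34, adjusted p = 0.0651). The neighbouring types showed falls in the same class. For obese against lean rats the changes under 5% were -3.35 ± 0.93 in DCT/CNT (adjusted p = 0.0130), -3.11 ± 0.81 in TAL (adjusted p = 0.0120) and -2.91 ± 0.88 in TAL/MD (adjusted p = 0.0211). At or over 5% they were -1.09, 0.50 and -0.65, and none of these passed the test. The DCT/CNT call under 5% was lost in 5 settings, among them without lean rat 2 or obese rat 1 (adjusted p up to 0.0564). Leaving out lean rat 2 brought the TAL/MD change to -1.78 (adjusted p = 0.0964), and leaving out obese rat 1 or 2 also ended its call. The TAL/MD call was lost in 6 settings in all. The TAL call held in all 11 fits that left out 1 animal. It was lost in 4 other settings, among them cells of at least 500 UMIs (-2.31, adjusted p = 0.0562).

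The share of a type's own cells that lie under 5% was compared with limma on log2 odds, over the types with at least 20 cells in an animal. For DCT the difference between obese and lean rats was -4.77 ± 1.24 (SE, adjusted p = 0.00935), and 11.1% of types, DCT and TAL, were called. TAL gave -3.99 ± 1.29 (adjusted p = 0.0372), while DCT/CNT gave -1.95 ± 1.22 and TAL/MD -2.0 ± 1.22 (adjusted p = 0.310 for both). The TAL call held in 5 of the 11 fits that left out 1 animal (-4.59 to -3.04, adjusted p up to 0.233). It was lost without lean rat 2 or 4, obese rat 1, 2 or 3, or treated rat 2, and in 9 settings in all. The DCT difference between obese and lean rats no longer passed when lean rat 2 was left out (-3.83 ± 1.31, adjusted p = 0.0731), without obese rat 1 (-4.5 ± 1.49, adjusted p = 0.0540) and among cells of at least 500 UMIs (-3.80 ± 1.26, adjusted p = 0.108). Treated minus lean rats gave -4.26 ± 1.34 (adjusted p = 0.0606) and treated minus untreated obese rats 0.51 ± 1.34 (adjusted p = 0.856), with 0.0% of types called in both. The first of these had an adjusted p of 0.0289 with lean rat 3 left out and of 0.00899 with treated rat 1 left out.

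DCT cells with no mitochondrial UMI at all numbered 585, of which 565 came from lean rats, 13 from obese and 7 from treated rats. In lean rats 1 to 4 they were 26.6%, 88.4%, 8.55% and 37.5% of DCT cells. In obese rats they were 1.47%, 1.71%, 3.08% and 3.23%, and in treated rats 2.34%, 0.917% and 0%. The last is 0 of 136 cells, which allows a share of up to 2.21% (3 counts of the total). All obese and treated rats lay below all lean rats. The other non-immune cells had 6.35% ± 7.09 without a mitochondrial UMI in lean, 2.12% ± 2.11 in obese and 2.69% ± 1.62 in treated rats. Of 19 types with enough lean cells, DCT had the highest mean share without a mitochondrial UMI in lean rats (40.2% ± 34.2, SD, n = 4). That mean included the 88.4% of lean rat 2, and the ranking was not repeated without this animal. TAL ranked 3 with 24.5% ± 35.4, while DCT/CNT had 1.33% ± 0.909 and TAL/MD 1.37% ± 1.26 (SD, n = 4 each).

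Depth was compared by windows of UMIs, because a shallow cell can miss mitochondrial UMIs, and cells could not be thinned without gene values. In lean rats 1, 3 and 4, 19.2%, 0% and 14.6% had no mitochondrial UMI from 500 to under 1000 UMIs. From 1000 to under 2000 UMIs these shares were 32.9%, 9.01% and 32.5%. At 2000 UMIs or more they were 24.3%, 17.1% and 60.4%. Lean rat 2 had 93.3% without a mitochondrial UMI among its 15 cells of the first window, and 0 cells in the deeper windows. The part of depth in these shares was not tested. Among DCT cells of 500 to under 1000 UMIs, 72.7% ± 17.2 were under 5% in lean rats and 11.1% ± 3.75 in obese rats (SD, n = 4 each). From 1000 to under 2000 UMIs the shares were 67.4% ± 17.0 in the 3 lean rats with such cells and 7.52% ± 7.15 in the 4 obese rats. At 2000 UMIs or more they were 59.4% ± 22.1 in 3 lean and 23.6% ± 9.39 in 4 obese rats. The lean rats lay above the obese rats in each window. Treated rat 1 had 16.5% under 5% in the first window, 60.9% in the next and 80.9% in the last, whereas treated rats 2 and 3 had between 5.88% and 16.7% in each.

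Median mitochondrial percent put the same groups apart. The median DCT cell had 1.16%, 0%, 4.75% and 0.136% mitochondrial UMIs in lean rats 1 to 4. Obese rats had medians of 33.9%, 27.4%, 25.8% and 33.5%, treated rats 6.50%, 24.6% and 28.4%. Every obese and treated rat lay above every lean rat, and treated rats 1 and 2 lay below every obese rat. In limma the difference between obese and lean rats was 28.6 ± 4.20 percentage points (SE, adjusted p = 0.000423), and DCT was the only type of 18 that was called (5.56%). TAL gave 20.5 ± 6.50 points (adjusted p = 0.0792), a difference that passed without lean rat 1, obese rat 4 or treated rat 1 (lowest adjusted p = 0.00565) and with means in place of medians (15.6, adjusted p = 0.0291). TAL/MD gave 8.45 ± 4.79 (adjusted p = 0.362) and DCT/CNT 0.30 ± 3.98 (adjusted p = 0.942). Without lean rat 2 the DCT difference was 28.1 ± 4.61 points (adjusted p = 0.00097).

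Treated minus lean rats gave 18.3 ± 4.54 points (adjusted p = 0.0345, 5.26% of types called), and treated minus untreated obese rats gave -10.3 ± 4.54 points (adjusted p = 0.629, 0.0% called). The former call was lost in 8 of the 11 fits that left out 1 animal: any of the 4 lean rats, obese rat 2 or 3, and treated rat 2 or 3, with differences of 14.0 to 19.4 points and adjusted p of 0.0501 to 0.204. By mean over lean animals, DCT ranked 18 of 19 types in median mitochondrial percent. By mean over obese animals it ranked 2 of 19, below TAL/MD alone. The median over the other non-immune cells was 9.40% ± 4.35 in lean and 18.1% ± 3.11 in obese rats.

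**Figure D2:**
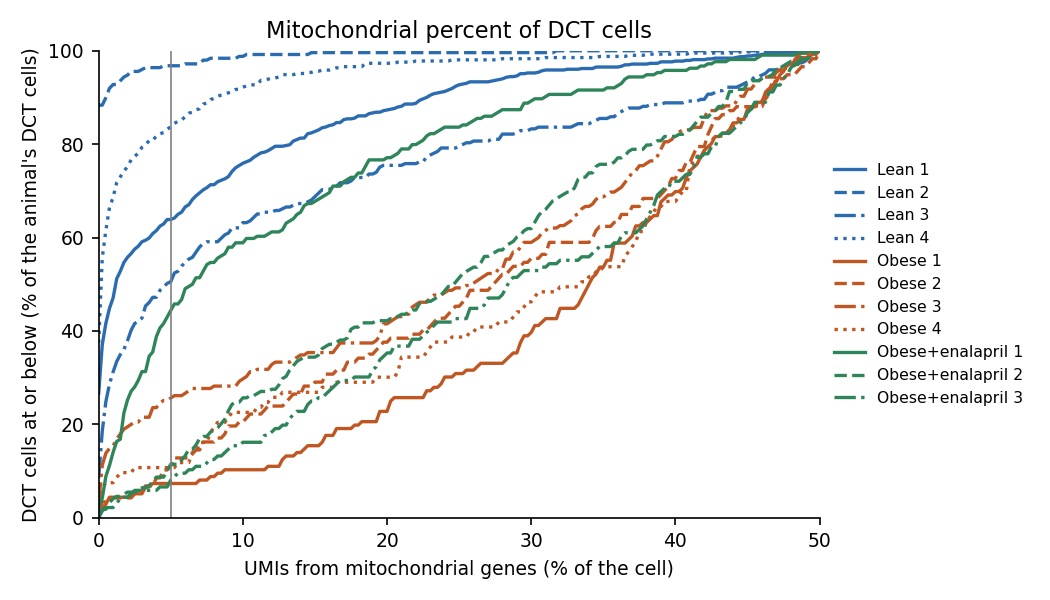
Share of each animal's DCT cells (y axis, %) at or below a given percent of mitochondrial UMIs (x axis), 1 line per animal, with the 5% split as a vertical line. The 4 lean curves start high, at 8.55% to 88.4% of cells with none. Treated rat 1 has 44.4% of its cells under 5%, between the lean animals and all other obese and treated animals. This position holds for part of the x axis only. At 1% its curve lies below that of obese rat 3 (14.0% against 15.4%). At 25% it lies above that of lean rat 3 (83.6% against 79.6%).

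Taken over all DCT cells of an animal, depth overlapped between the groups. Median UMIs per DCT cell were 1093, 302, 1438 and 1555 in lean, 1367, 1268, 2447 and 1014 in obese, and 1076.5, 1362 and 1621.5 in treated rats. Median genes were 666, 217, 726 and 854 in lean, 574, 637, 951 and 499 in obese, and 516.5, 595.5 and 655 in treated rats. Only obese rat 3 and treated rat 3 had more UMIs than every lean rat. In limma the difference in log2 median UMIs was 0.64 ± 0.55 for obese minus lean (adjusted p = 0.366) and that in log2 median genes 0.24 ± 0.44 (adjusted p = 0.598), with 0.0% of types called. Without lean rat 2 the difference in genes turned to -0.21. Treated minus untreated obese rats gave -0.11 for UMIs and -0.14 for genes (adjusted p = 0.930 and 0.938).

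The classes under and at or over 5% were compared within animals. At least 10 cells were required in both classes, which left out lean rat 2 with 8 cells at or over 5% and kept 10 animals. Median UMIs in cells under 5% were 1075, 1294 and 1542 in lean rats 1, 3 and 4, against 1131.5, 1522 and 1640 in cells at or over 5%. In obese rats 1 to 4 they were 1515.5, 2521, 3842.5 and 1147.5 against 1367, 1223.5, 2281 and 1014. In treated rats they were 1766, 1587.5 and 1634 against 795, 1354 and 1609. Cells under 5% thus had 0.85 to 0.95 times the UMIs in the 3 lean rats, and 1.02 to 2.22 times the UMIs in the 7 obese and treated rats. The mean difference over the groups was 0.29 ± 0.12 on the log2 scale (SE, limma, adjusted p = 0.0835, higher in 7 of 10 animals), with 5.56% of 18 types called. Obese minus lean, the difference between these differences was 0.66 ± 0.30 (adjusted p = 0.156).

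Genes per cell were higher under 5%. They are counted largely from UMIs of other than mitochondrial genes, which are higher under 5% where totals are alike. The differences in genes and in genes per 100 UMIs therefore describe the classes and are no separate support. Median genes in cells under 5% were 686, 781.5 and 867 in the lean rats against 614, 667 and 783 at or over 5%. Obese rats had 774.5, 1252, 1621 and 565 against 574, 599.5, 826 and 488, and treated rats had 673, 587 and 807 against 421, 595.5 and 646. Treated rat 2 was the exception among the 10 animals. The mean difference was 0.39 ± 0.09 on the log2 scale (SE, limma, adjusted p = 0.00906), where 38.9% of types were called. The call was lost at a split of 3% (0.33 ± 0.11, adjusted p = 0.0526) and among cells of 500 to 2000 UMIs (0.22 ± 0.11, adjusted p = 0.0813). Genes per 100 UMIs differed by 5.05 ± 2.65 (adjusted p = 0.145, 8 of 10 animals higher, 38.9% of types called). The call for genes per 100 UMIs was gained without treated rat 1, with a difference of 7.29 (adjusted p = 0.0273).

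UMIs from other than mitochondrial genes are higher under 5% by construction where totals are alike, so their difference describes the classes and is no separate support. Computed from the deposited total and percent, the median was 1067, 1274 and 1542 in lean rats 1, 3 and 4 under 5%, against 923, 1098 and 1325 at or over it. In the obese rats it was 1465, 2498, 3806 and 1132 against 867, 880 and 1428 in obese rats 1 to 3 and 702 in obese rat 4. The ratio of under to at or over 5% was 1.16 in each of the 3 lean rats, and 1.5 to 2.84 in the 7 obese and treated rats. The mean difference was 0.74 ± 0.11 on the log2 scale (SE, limma, adjusted p = 0.000303, 10 of 10 animals, 50% of types called). Obese minus lean it was 0.88 ± 0.26 (adjusted p = 0.0755), and the threshold was passed without obese rat 4 or treated rat 1 (lowest adjusted p = 0.0317). For DCT/CNT the mean differences were 0.07 ± 0.13 in log2 genes and 0.27 ± 0.12 in log2 non-mitochondrial UMIs (adjusted p = 0.653 and 0.102). For TAL they were 0.14 ± 0.08 and 0.17 ± 0.07 (adjusted p = 0.193 and 0.0697), and for TAL/MD -0.05 ± 0.03 and 0.09 ± 0.06 (adjusted p = 0.266 and 0.230). TAL genes passed without obese rat 4 (0.22, adjusted p = 0.0021). Non-mitochondrial UMIs passed for TAL without lean rat 2 or obese rat 4, for DCT/CNT without lean rat 4 and for DCT/CNT and TAL/MD at a split of 10% (0.37 and 0.20, adjusted p = 0.00705 and 0.0115).

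**Figure D3:**
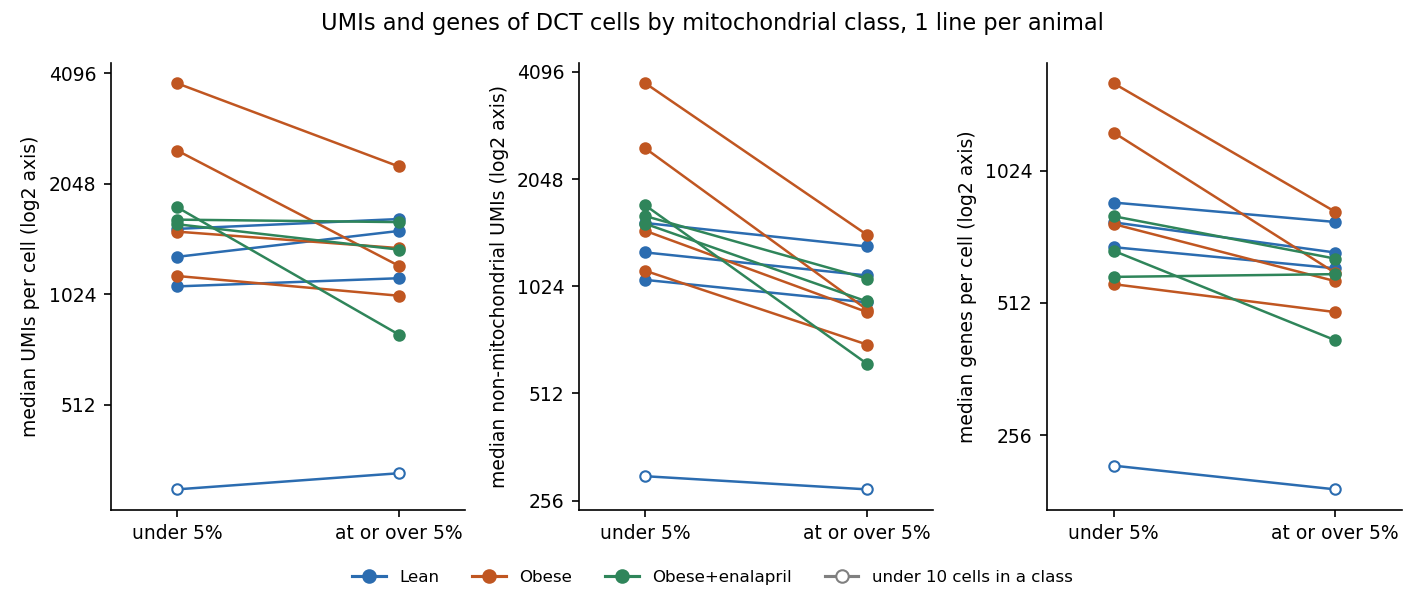
Median UMIs, non-mitochondrial UMIs and genes per DCT cell (log2 y axes) in cells under 5% and at or over 5%, 1 line per animal coloured by group, with open points where a class has under 10 cells. Among the 10 animals with enough cells, UMIs run slightly up in the 3 lean lines and down in the 7 obese and treated ones. Genes run down in 9 of these 10 lines.

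The cell cycle phase was called by the authors from an S score and a G2M score per cell, and such calls alone do not show that cells divide. Over all DCT cells, 40.7%, 13.7%, 39.4% and 52.1% were called S in lean rats 1 to 4, 25.7%, 32.5%, 34.9% and 30.1% in obese rats, and 23.4%, 30.3% and 36.8% in treated rats. Lean rat 2, the shallowest library, was the lowest. In limma obese minus lean rats gave -5.67 ± 5.46 points (adjusted p = 0.566, 0.0% of types called). Without lean rat 2 the difference was -13.3 ± 3.44 points (adjusted p = 0.00318), and for treated minus lean rats it moved from -6.33 ± 5.90 (adjusted p = 0.773) to -13.9 ± 3.67 points (adjusted p = 0.00431).

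The G2M phase was called in 16.0%, 12.4%, 17.1% and 15.3% of lean DCT cells, 27.9%, 19.7%, 22.6% and 28.0% of obese ones, and 22.0%, 20.6% and 16.2% of treated ones. All obese rats lay above all lean rats. The limma difference for obese minus lean rats was 9.31 ± 2.41 points (SE, adjusted p = 0.0382), with DCT the only type of 18 called (5.56%). The call was lost in 5 of the 11 fits that left out 1 animal (without lean rat 2 or 4, obese rat 1 or 4, or treated rat 2, with adjusted p of 0.0588 to 0.153), and among cells of at least 500 UMIs (8.24 ± 2.74, adjusted p = 0.184). All cells other than DCT, pooled over types whose shares also differed between the groups, had 21.6% ± 2.24 called G2M in lean and 30.5% ± 2.52 in obese rats. By type the differences were 7.74 points in TAL (adjusted p = 0.0951), 2.78 in DCT/CNT and 2.14 in TAL/MD (adjusted p = 0.456 and 0.544). The part of depth in the phase calls was not tested beyond these settings. Treated minus untreated obese rats gave -4.94 points (adjusted p = 0.309).

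Within animals, the S phase was called more often under 5% in 9 of 10 animals. The shares were 42.4%, 40.4% and 53.2% under 5% in lean rats 1, 3 and 4 against 37.7%, 38.3% and 46.3% at or over it. In obese rats they were 30%, 53.8%, 46% and 40% against 25.4%, 29.8%, 31% and 28.9%, and in treated rats 20%, 33.3% and 45.5% against 26.1%, 29.9% and 36%. The mean difference was 6.84 ± 2.63 points (SE, limma, adjusted p = 0.0838, 5.56% of types called). It passed at a split of 10% (10.5 ± 2.31, adjusted p = 0.000448) and without obese rat 1, obese rat 4 or treated rat 1 (adjusted p of 0.0293 to 0.0487). Pooled over lean rats 1, 3 and 4, 51.3% of DCT cells without a mitochondrial UMI were called S. The share was 40.6% from over 0 to under 1%, 46.8% from 1% to under 5%, and 48.3% from 5% to under 10%. It was 39.2% from 10% to under 20% and 38.2% from 20% to under 30%. From 30% to under 40% it was 25.7%, and from 40% to under 50% 23.4%. In lean rat 2 the share was 14.1% of 220 cells without a mitochondrial UMI. Pooled over the obese rats it was 30.8% of 13 cells without one and 50% of 34 cells from 5% to under 10%. It was 17.2% of 93 obese cells from 20% to under 30% and 30.4% of 138 from 40% to under 50%. The other obese levels had 42.9% (over 0 to under 1%), 51.4% (1% to under 5%), 34.3% (10% to under 20%) and 27.0% (30% to under 40%). The treated levels lay between 22.7% (1% to under 5%) and 35.6% (5% to under 10%), without a steady direction.

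The G2M share differed by -5.74 ± 2.53 points within animals (limma, adjusted p = 0.4, 0.0% of types called), with 3 animals higher and 7 lower under 5%. The obese classes were 16.4% ± 10.1 under and 25.8% ± 3.96 at or over 5% (SD, n = 4), the lean ones 14.8% ± 1.42 (n = 4) and 17.0% ± 1.78 (n = 3). Treated rat 3 had 0 of 11 cells under 5% called G2M, which allows a share of up to 27.3%. The mean S score differed by 0.0033 and the mean G2M score by -0.0086 (adjusted p = 0.434 and 0.138). Counts under 15 cells in 4 of the 7 obese and treated animals limit these values.

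**Figure D4:**
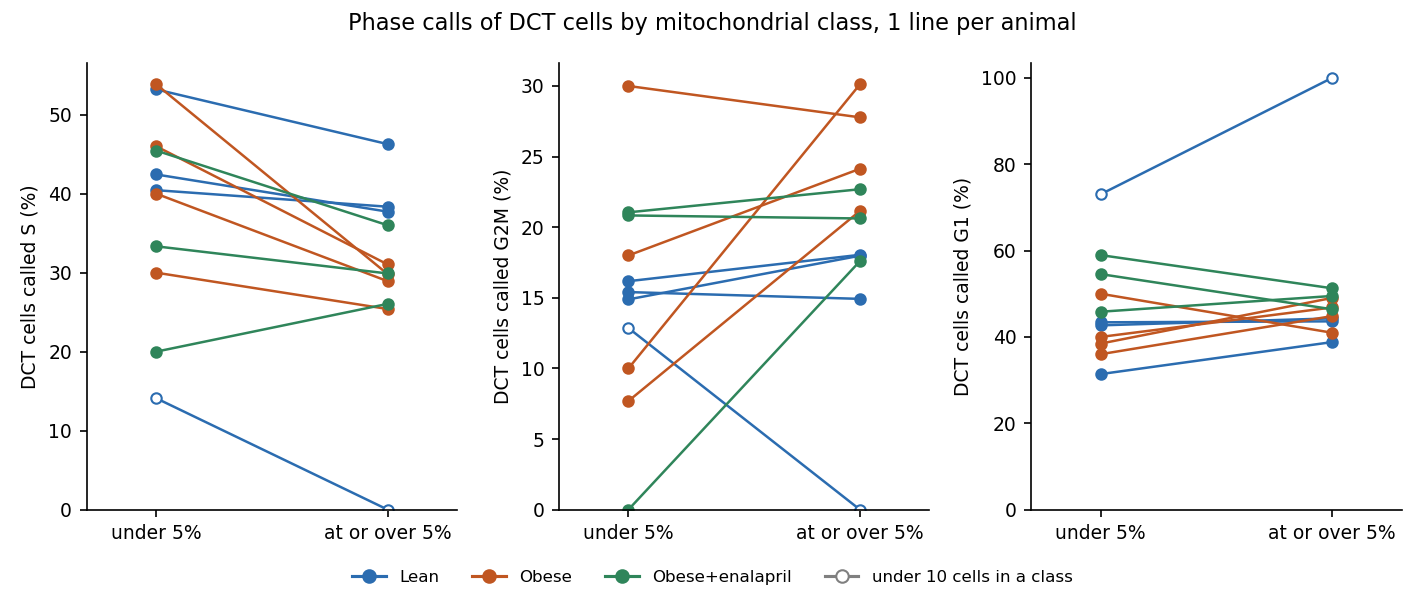
Percent of DCT cells called S, G2M and G1 (y axes, each from 0) under 5% and at or over 5%, 1 line per animal coloured by group, with open points where a class has under 10 cells. The S lines fall from left to right in 9 of the 10 animals with enough cells, and the G2M lines of obese rats spread widely under 5%.

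On the deposited map of all cells, whose coordinates have no unit, the DCT cells formed 1 compact patch. Its median position was -6.57 on the first and -6.05 on the second coordinate, with a median distance of 0.714 from that position, and 1 cell lay more than 3 units away. The nearest median positions among the compared types were DCT/CNT at 1.91 units, TAL at 3.03 and TAL/MD at 4.51. The map and the names share their source, and the sources used here do not say whether mitochondrial genes entered the map. The positions below are therefore differences within the patch, not evidence on what the cells are.

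Within animals the 2 classes differed in position, with much overlap. The median first coordinate under 5% was -7.03, -6.65 and -6.81 in lean rats 1, 3 and 4 against -6.69, -6.13 and -6.36 at or over it. In obese rats it was -6.25, -7.30, -6.72 and -6.31 against -5.92, -6.05, -6.00 and -6.08, and in treated rats -6.69, -6.12 and -6.75 against -6.12, -5.93 and -6.07. Cells under 5% thus lay lower in 10 of 10 animals, by -0.52 ± 0.10 units (SE, limma, adjusted p = 0.00277, 50% of types called). On the second coordinate they lay higher in 9 of 10 animals, by 0.43 ± 0.09 (adjusted p = 0.00379, 50% called). Both calls held among cells of 500 to 2000 UMIs, with -0.29 ± 0.09 (adjusted p = 0.0238) and 0.47 ± 0.11 (adjusted p = 0.0132). On the first coordinate DCT/CNT gave 0.12 ± 0.11, TAL -0.73 ± 0.20 (adjusted p = 0.0179) and TAL/MD -0.20 ± 0.15.

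Pooled over all animals and cut into 4 parts of like cell number along the first coordinate, the patch went from 77.2% of cells under 5% in the lowest part through 66.7% and 37.9% to 18.4% in the highest. Median UMIs were 1731, 1202, 1131 and 879 in the same order, and median genes 931, 695, 601 and 457. Depth and mitochondrial percent thus moved along the same axis, and their separate parts were not tested. The group moved with them: the lowest part held 32.7% ± 7.04 of lean DCT cells and 9.01% ± 2.86 of obese ones, and the highest part 13.7% ± 14.0 and 44.0% ± 4.48. Position on the second coordinate under 5% was -5.96 ± 0.275 in lean and -5.33 ± 0.359 in obese rats, while at or over 5% it was -6.13 ± 0.228 and -6.04 ± 0.187. The difference between these differences, 0.54 ± 0.23, did not pass the test (limma, adjusted p = 0.258).

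**Figure D5:**
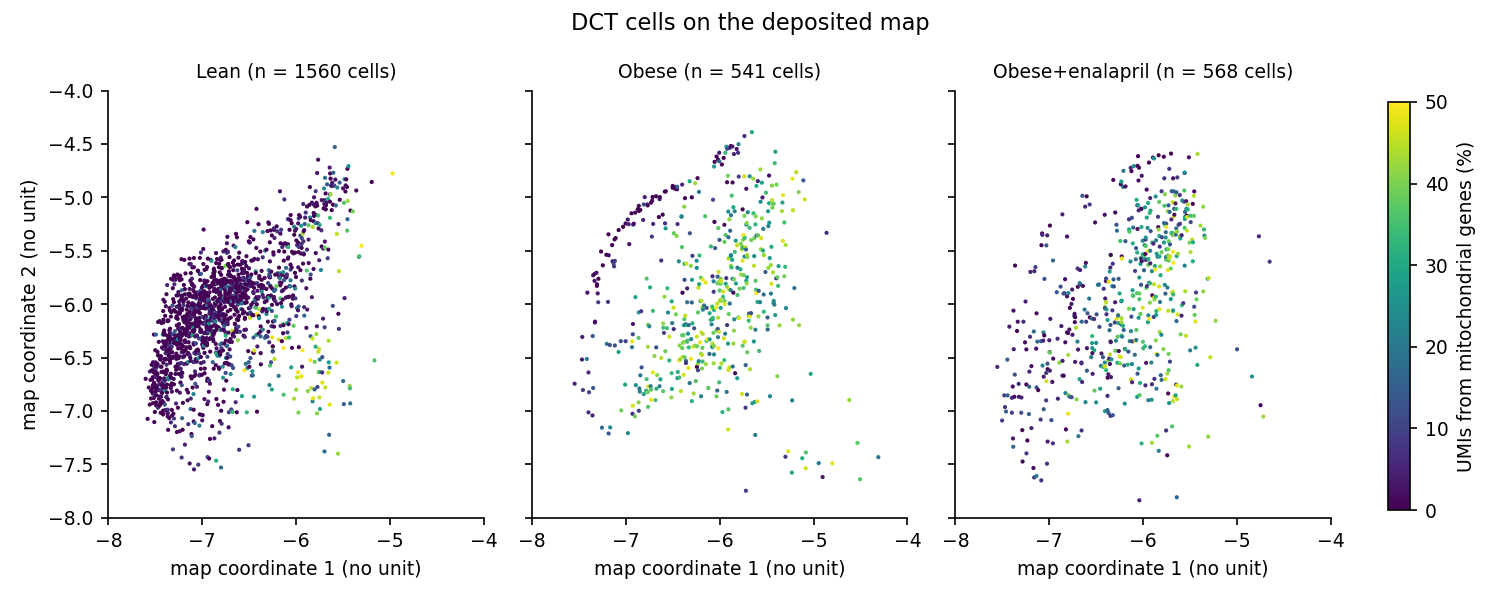
DCT cells of the 3 groups on the deposited map (both axes without unit), 1 point per cell coloured by percent of mitochondrial UMIs, with 4 cells outside the window drawn. Cells of low percent have the lower median first coordinate in each of the 10 animals compared, and the few obese cells under 5% are spread over the length of the patch.

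Most map neighbours of a DCT cell were DCT cells themselves. Among the 30 nearest cells, 90.2% ± 5.84 carried the name DCT for cells under 5% (SD, n = 11) and 87.0% ± 2.29 for cells at or over it (SD, n = 10). Around cells under 5%, DCT/CNT cells were 2.24% of neighbours in lean, 0.601% in obese and 6.76% in treated rats, TAL cells 0.834%, 4.37% and 3.70%, and PCT/PST cells, read as proximal convoluted and straight tubule, 1.71%, 2.97% and 5.54% (n = 4, 4 and 3). Around cells at or over 5%, DCT/CNT cells were 5.74%, 5.28% and 7.76% in the same order, above TAL and PCT/PST in each group. The difference in own-name neighbours was 2.58 ± 1.09 points (limma, adjusted p = 0.0959, 27.8% of types called), and it passed without treated rat 2 (adjusted p = 0.0178). It was 7.14, 7.34 and 4.83 points in lean rats 1, 3 and 4, 5.28, 6.31, 5.96 and 0.482 in obese rats, and -1.29, -9.45 and 1.14 in treated rats. Treated minus lean, this came to -9.63 ± 2.79 points (adjusted p = 0.0670). Of the neighbours of cells under 5%, 61.1% ± 9.23 were themselves under 5%, against 32.1% ± 8.69 for cells at or over 5%. Neighbours from the same animal were 18.7% ± 12.3 and 13.5% ± 7.46.

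In all, 33 differences between groups in these within-animal differences were tested for DCT (11 measures, 3 contrasts). None passed the adjusted threshold in limma, 6 had an unadjusted p under 0.05, and the smallest adjusted p was 0.0670. Near the split, pooled over animals, the 60 cells from 4% to under 5% had a median of 1479 UMIs, 717 genes and a first coordinate of -6.82. The 59 cells from 5% to under 6% had 1363 UMIs, 764 genes and -6.79. From no mitochondrial UMI to the class of 40% to under 50%, the median first coordinate over lean rats 1, 3 and 4 ran from -7.12 to -5.84, and that over the obese rats from -6.68 to -5.93. Over the treated rats it was -6.12 in the 7 cells with none, -6.72 from over 0 to under 1%, and -5.74 at the top. Median genes at no mitochondrial UMI were 854 over lean rats 1, 3 and 4 and 221 in lean rat 2. From 20% upwards the lean levels had 604 to 640 genes, the obese levels 541 to 647.5 and the treated levels 500 to 534. These levels pool the cells of the animals named, and their breakdown by group was chosen after seeing the data.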

How the data were processed

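The authors' table of 114615 cells was used, which lists cells but no gene values. Its UMIs and genes of each cell are raw counts as the authors deposited them, judged by the headers and the whole numbers. The mitochondrial share is a percent deposited by the authors. For the cell cycle the authors deposited an S score, a G2M score and a phase. The map coordinates and cell type names are the authors', per the file headers. The submitters' processing notes name Seurat 4.3.0, Cell Ranger 7.0.1 and the build rn6, without their roles. The sources used here do not give the cell filters, the treatment of doublets or the genes behind the names. The members, compared types and tests were chosen with earlier results of these data known. DCT was described in every measure, and DCT/CNT, TAL and TAL/MD were taken as its neighbours along the nephron. Further types appear by name where 5 or fewer make up a count, or where they border DCT on the map.

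Cells were assigned to animals by the sample code, and 0 cells had a group that differed from the labels. DCT cells per animal ran from 93 to 631. Numbers of cells were fitted with edgeR 4.0.16 (quasi-likelihood, robust, no abundance trend, all cells of the animal as library size, features with a mean of at least 10 cells). Shares (0.5 added to both counts), medians, phases and within-animal differences were fitted with limma 3.58.1, with 1 fit per measure over all types and 3 groups. Differences between groups are the first group named minus the second. SEs of edgeR were derived from the test. Benjamini-Hochberg adjustment was over all types or features within a contrast, with a threshold of 0.05. Non-mitochondrial UMIs were the deposited total less its deposited percent. Map neighbours were the 30 nearest cells. The fits were tested on simulated data with known changes. Alternatives were DESeq2 1.42.0, limma and exact permutation on shares, TMM, other totals, UMI windows, splits and minima, and leaving out each animal. Cells with no mitochondrial UMI against any were added as a split after seeing the data. Scripts ran in R 4.3.3 and, with pandas 2.3.3, numpy 2.4.6, matplotlib 3.10.9 and scipy 1.17.1, in Python 3.11.15.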

Additional observations from a re-analysis of the deposited data

How the results depend on the processing

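Values are given as in the report (log2 fold changes of cell numbers, log2 odds of lying under 5%, log2 medians, and percentage points), with adjusted p in parentheses. O-L, T-L and T-O stand for obese minus lean, treated minus lean and treated minus untreated obese, and the cause of each change was not tested. The fall of DCT cells and of DCT cells under 5% (both O-L) and the rise in median mitochondrial percent (O-L) kept direction and call in every setting run, except that exact permutation gave -2.23 (0.0714) for DCT cells and -4.73 (0.0929) for those under 5%. For T-L exact permutation did not pass either, with -1.77 (0.190) for DCT cells and -3.92 (0.223) under 5%. At or over 5% O-L it gave 0.10 (0.938), and limma 0.10 (0.925). With non-immune cells as the total, DCT cells at or over 5% gave 0.15 (0.856) O-L and -0.039 (0.961) T-O. Among cells of at least 500 UMIs, DCT cells T-L gave -1.40 (0.108), those under 5% T-L -3.34 (0.0651), odds O-L -3.80 (0.108), median mitochondrial percent T-L 17.6 (0.121), genes -0.20 O-L and -0.35 T-L (0.573 and 0.747), and G2M O-L 8.24 (0.184). At 1000 UMIs, T-L was -3.06 (0.0508) under 5% and -0.43 (0.880) at or over it. From 500 to 2000 UMIs, median mitochondrial percent T-L was 21.6 (0.0665), UMIs -0.11 O-L and -0.13 T-L (0.809 and 0.639), genes -0.36 and -0.45 (0.348 and 0.156), G2M O-L 8.35 (0.156), and the class differences 0.22 (0.0813) in genes, 0.12 (0.370) in TAL/MD genes and -0.24 (0.923) in own-name neighbours. With the split at 10%, DCT cells at or over it gave 0.31 (0.759) O-L, odds T-L -4.17 (0.0332), TAL/MD genes 0.041 (0.356), genes per 100 UMIs 7.29 (0.0140) and S 10.5 (0.000448). At 3%, the values were -0.059 (0.947) at or over it T-L, -4.59 (0.0460) for odds T-L, 0.33 (0.0526) for genes and -0.0078 (0.936) for TAL/MD non-mitochondrial UMIs. At 0, a split chosen after seeing the data, TAL cells with any mitochondrial UMI gave -0.039 (0.937) O-L, DCT cells without one -0.69 (0.772) T-O, DCT cells with any -0.91 (0.334) T-L, and odds -1.38 (0.749) T-O and -5.92 (0.0102) T-L. A minimum of 10 or 50 cells gave -4.26 for odds T-L (0.0449 or 0.0349), a minimum of 20 per class gave -0.013 (0.851) for TAL genes, and 100 map neighbours gave 2.79 (0.0374).

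With the replicate number as a replicate block, DCT cells under 5% T-L gave -3.97 (0.131), those at or over 5% T-L -0.11 (0.963) and S T-O 1.82 (0.992). Whether the numbers pair the animals was not settled. Of 10 same-numbered pairs, 5 had deviations correlated over 0.1 (range -0.44 to 0.52). Pairs with different numbers ranged from -0.57 to 0.52. Of 11 animals, 8 correlated best with their own number, and the count to be had without pairing was not computed.

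Leaving out 1 animal at a time, DCT cells T-L ranged from -1.89 to -1.55, those under 5% from -0.11 to 1.45 T-O and -4.53 to -3.46 T-L, and those at or over 5% from -0.57 to 0.13 O-L and -0.28 to 0.41 T-L. Odds ranged from -5.43 to -3.83 O-L, -0.45 to 1.11 T-O and -5.23 to -3.32 T-L. Median mitochondrial percent T-L ranged from 14.0 to 24.97, and O-L in DCT/CNT from -2.48 to 3.24. UMIs ranged from -0.28 to 0.15 T-O and -0.013 to 0.77 T-L, and genes from -0.21 to 0.45 O-L, -0.26 to 0.048 T-O and -0.35 to 0.31 T-L. S ranged from -13.3 to -0.46 O-L, -3.98 to 2.72 T-O and -13.9 to -1.13 T-L, and G2M O-L from 8.17 to 10.9. Class differences ranged from -0.011 to 0.12 in DCT/CNT genes, 2.25 to 7.29 in genes per 100 UMIs, 5.65 to 8.23 in S and 1.86 to 3.62 in own-name neighbours. The 12 features called O-L became 0 by exact permutation, 7 of the non-immune total, and 2 both at 1000 UMIs and with the replicate block. The 2 called T-L became 0 at 500 and 1000 UMIs and with the block, 1 in limma, with TMM, of the non-immune total and at splits of 3% and 10%, and 3 in DESeq2 and at the split at 0. The 0 called T-O became 4 at 1000 UMIs. Not every such setting is listed: a larger change in the number called was counted in 8 settings O-L, 18 T-L and 2 T-O. Few DCT cells of obese and treated rats lay under 5%, which limits values within that class.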
